A study of Homo sapiens with 4 samples.

Results

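DU145 cells given C-30 at 0.5 µM for 48 h were compared with DU145 cells given vehicle for the same time, by the log2 difference of each gene's signal on 1 array per condition (C-30 minus vehicle). A gene was described when the higher of its 2 signals lay above the signal that 95% of that array's negative control probe sets stay under, a background level of 7.32 with vehicle and 7.11 with C-30. Of 17687 named genes, 5951 (33.6%) met this rule. The signal was above background on both arrays for 5191 of them and on 1 array for 760, of which 559 were dim with vehicle and 201 with C-30. Because the level was higher with vehicle, a gene with like signals on both arrays, between the levels, could count as dim with vehicle. The remaining 11736 genes did not meet this rule and are not described.

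DU145 is an established line of human prostate carcinoma cells that do not need androgen to grow. Per the labels, the cells received vehicle, C-30 at 0.5 or 2 µM, or No.10-3 at 5 µM. The series describes both compounds as inhibitors of PSF. All 4 conditions are the same parental line in culture, with no genetic change named in the labels. With 1 array per condition there was no replicate, no test and no error for any difference. A difference of 1 on this scale is called 2-fold, and the 2 other treated arrays are given beside the values and share the same vehicle array.

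PSF is the protein of the gene SFPQ. It binds RNA and DNA, pairs with its relatives NONO and PSPC1, and takes part in transcription, splicing and the nuclear bodies called paraspeckles, and it has been linked to the expression of long genes and to steroid receptor signalling in prostate cancer. Replication-dependent histones, the proteins that package newly copied DNA, are made in S phase from many near-identical genes whose mRNAs end in a stem-loop instead of a poly(A) tail. Replacement histones are instead made throughout the cell cycle.

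The cells carried the label's epithelial character. Of 7 epithelial markers, 6 were above background on both arrays, with KRT8 at 12.98 with vehicle and 12.82 with C-30, KRT18 at 10.84 on each, KRT19 at 11.22 and 11.52, KRT7 at 14.18 and 13.92, EGFR at 9.31 and 8.71, and EPCAM at 7.33 and 7.81. The cadherin gene CDH1 was within background, at 4.85 and 5.57. The androgen-regulated genes KLK3, KLK2 and TMPRSS2 were within background on both arrays, as is usual for this line. Of 10 leukocyte markers, CD68 alone was above background, at 8.43 with vehicle and 8.55 with C-30. Of 10 stromal and endothelial markers, COL1A2 alone reached it, at 7.13 on the C-30 array, and 0 of 4 neuroendocrine markers did.

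The distribution of differences was close to symmetric. Of the 5951 genes, 2759 were higher and 3190 lower with C-30, and the median difference was -0.05, with quartiles of -0.40 and 0.32. In 65.0% of genes the arrays differed by less than 0.5. At least 2-fold higher signals were found for 216 genes, 3.63% of those described, and at least 2-fold lower signals for 181, or 3.04%. Among genes above background on both arrays, 120 were 2-fold higher and 134 lower. Of the 96 higher and 47 lower genes that were above background on 1 array only, 13 and 9 were still past 2-fold when the dim signal was replaced by its array's background level. On the same arrays, of 2000 positive control probe sets above background, 3.15% were 2-fold higher and 3.8% 2-fold lower. The genes' shares past 2-fold were thus near those of the positive controls. Whether the positive controls change with treatment was not tested. Of 45 negative control probe sets above background, 31.1% were 2-fold higher and 28.9% 2-fold lower. The spread of the 63 ERCC spike-in probe sets was smaller, with a robust SD of 0.154, but only 1 of them was above background. Among other spike-in probe sets, thr differed by -0.80, dap by -0.35 and phe by -0.21. The spike-ins lys, bioB, bioC, bioD and cre differed by -0.01 to 0.11.

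The rule's edge lay among dim genes. Just inside it were ZNF747 at 7.33 with vehicle and 6.96 with C-30, RBPJ at 7.33 and 7.08, and HELB at 6.91 and 7.11. Just outside were TMEM9B at 6.66 and 7.11, PPP1R12A at 6.68 and 7.11, and XRN1 at 6.40 and 7.11. These C-30 signals lay below the level by less than the rounding.

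**Figure D1:**
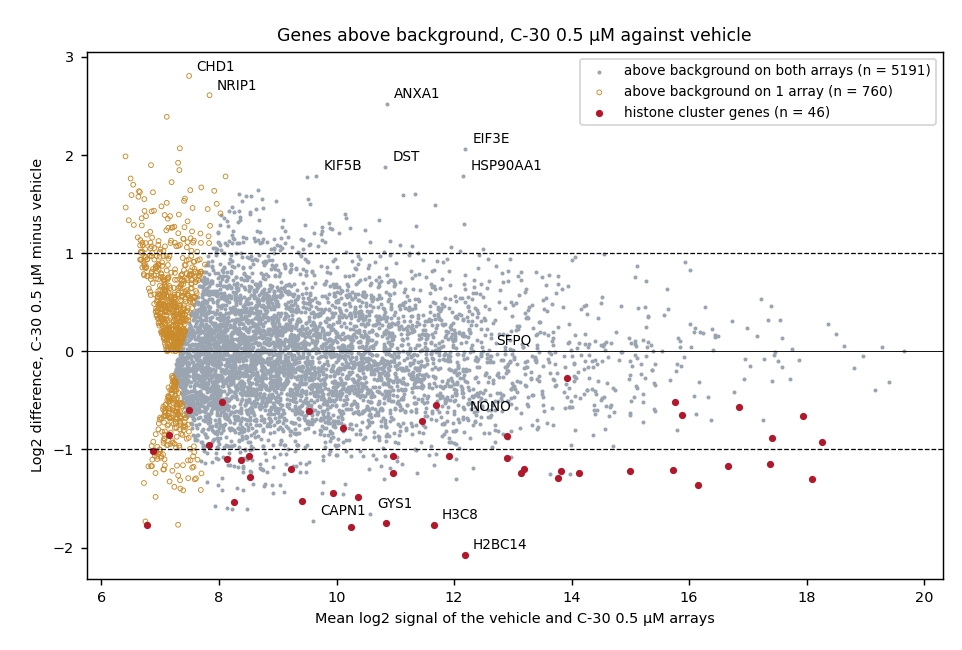
Log2 difference between C-30 at 0.5 µM and vehicle (vertical axis) against the mean log2 signal of both arrays (horizontal axis) for the 5951 genes described, 1 point per gene, with dashed lines at 2-fold. Grey points were above background on both arrays and open points on 1 array; the 46 histone cluster genes, in red, all lie below 0, from -2.07 to -0.27, over the whole range of signal.

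Replication-dependent histone genes were the group with the lowest signals relative to vehicle. Of 61 named genes of the histone clusters, 46 were above background, 43 of them on both arrays. With C-30 at 0.5 µM each of the 46 had a lower signal, 30 by at least 2-fold, and these 30 made up 16.6% of the 181 genes past 2-fold lower. Their median difference was -1.13, against -0.05 over all genes described, and -1.14 for the 43 above background on both arrays. Signals spanned 7.38 to 18.74 with vehicle around a median of 12.21, and the median was 11.13 with C-30 at 0.5 µM, 9.54 with C-30 at 2 µM and 12.09 with No.10-3. Because copies of this family are near-identical and probes may read several of them, values of single members are uncertain, and the 46 genes are not independent measurements. The list was drawn up with earlier results of these arrays known, so its direction is a description. In RNA of whole cultures, fewer cells in S phase and less histone RNA per cell cannot be told apart.

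H2BC14, a histone H2B gene at chr6:27815022-27815489 in GRCh38.p14, had the lowest difference of all genes above background on both arrays. Its signal was 13.23 with vehicle, 11.16 with C-30 at 0.5 µM, 7.59 with C-30 at 2 µM and 12.15 with No.10-3, a difference of -2.07 (4.20-fold lower) at 0.5 µM. The vehicle array was the highest and the 2 µM array the lowest. Promoter sequences are shown for H2BC14, for another H2B gene and for 2 H3 genes among the 15 lowest, because these members were all lower and core histone promoters are built from short shared elements. They are the 130 bases before the annotated start in RefSeq GRCh38.p14, 5′ to 3′ on the gene's strand, with capitals marking 3 elements on either strand, namely the TATA element TATAAA, the CCAAT element CCAAT, which reads as ATTGG from the other strand, and the octamer core TTTGCAT. No element overlaps another in these letters. The positions are chr6:27814892-27815021 on the plus strand for H2BC14, chr6:26216689-26216818 on the minus strand for H2BC8, chr6:26020321-26020450 on the plus strand for H3C1, and chr6:26271414-26271543 on the minus strand for H3C8.
H2BC14: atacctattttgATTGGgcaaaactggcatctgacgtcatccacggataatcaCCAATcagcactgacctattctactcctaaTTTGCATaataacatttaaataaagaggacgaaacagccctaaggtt
H2BC8: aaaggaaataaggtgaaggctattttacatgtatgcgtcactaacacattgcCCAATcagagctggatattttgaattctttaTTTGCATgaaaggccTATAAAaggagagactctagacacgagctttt
H3C1: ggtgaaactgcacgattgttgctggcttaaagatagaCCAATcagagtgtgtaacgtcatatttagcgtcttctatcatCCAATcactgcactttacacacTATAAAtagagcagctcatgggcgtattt
H3C8: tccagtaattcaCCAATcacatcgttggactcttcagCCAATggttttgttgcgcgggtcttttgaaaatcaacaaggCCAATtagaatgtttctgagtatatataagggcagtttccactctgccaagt
All 4 stretches hold CCAAT, and both H2B stretches hold TTTGCAT, the core of the octamer element known from H2B promoters. Among the H2B genes of the 15 lowest that are not shown, H2BC10 held TTTGCAT in the same window and H2BC13 did not. In the 250 bases before the start, TATAAA was found on either strand in 71.4% of 42 histone promoters with an entry, against 9.09% of 14250 promoters of named genes. CCAAT was found in 81.0% against 34.6%, and TTTGCAT in 45.2% against 3.39%. By class, 12 of 14 H2B promoters held TTTGCAT and 0 of 8 H4 promoters held CCAAT. A match is a description of the letters and not a binding site.

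All 5 histone classes shared the direction. The 6 H3 genes had a median of -1.64, with 5 past 2-fold lower. H3C1 had signals of 11.13 with vehicle, 9.34 and 8.19 with C-30 at 0.5 and 2 µM, and 10.39 with No.10-3, a difference of -1.79 at 0.5 µM. For H3C8 the signals were 12.55, 10.78, 7.98 and 12.13 in the same order, and the difference was -1.77. H3C11 went from 11.71 to 9.97 at 0.5 µM, with 7.39 at 2 µM and 11.43 with No.10-3, and H3C10 from 9.03 to 7.49, with 5.72 and 8.68. The H3C10 signal of 5.72 was under the 2 µM array's background level of 7.15. In each of these H3 genes the 0.5 µM array lay between vehicle and 2 µM, and No.10-3 lay nearer to vehicle.

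The 14 H2B genes, whose protein pairs with H2A in the nucleosome, had a median of -1.07, with 8 past 2-fold lower. After H2BC14 came H2BC10 at 10.17 with vehicle and 8.65 with C-30 at 0.5 µM (-1.53), H2BC8 at 11.10 and 9.62 (-1.48) and H2BC13 at 10.67 and 9.22 (-1.45). Their signals at 2 µM were 6.31, 7.78 and 6.95, the first and last of these under that array's background level of 7.15. The 12 H2A genes had a median of -1.11, with 8 past 2-fold. H2AC14, the histone gene with the highest vehicle signal, went from 18.74 to 17.44 (-1.30), H2AC4 from 14.41 to 13.13 (-1.29), H2AC21 from 14.43 to 13.21 (-1.22) and H2AC15 from 9.82 to 8.62 (-1.20). Over all 12 H2A genes the differences ran from -1.30 to -0.52.

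Of the 10 H4 genes, which encode the partner of H3, 7 were past 2-fold lower, with a median of -1.23. The 4 with the largest differences on both arrays were H4C3 (16.84 with vehicle, 15.47 with C-30 at 0.5 µM), H4C4 (9.16 and 7.88), H4C15 (14.74 and 13.51) and H4C1 (11.58 and 10.34), with differences from -1.36 to -1.24. The 4 linker histone H1 genes had a median of -0.84, with 2 past 2-fold. Among them H1-5 went from 16.33 to 15.12 (-1.20), H1-4 from 18.27 to 17.61 (-0.66) and H1-2 from 11.97 to 11.42 (-0.55).

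Position was examined next. Of the 46 histone genes, 37 lie in the clusters of chromosome 6 (median -1.17) and 9 on chromosome 1 (median -0.88). Between chr6:25726063-27893891, all 37 histone genes were lower and 26 were past 2-fold. The 5 other genes of that interval above background, BTN2A1, BTN2A2, BTN3A2, BTN3A3 and GUSBP2, differed by -0.22 to 0.21, with a median of -0.09 and none past 2-fold. These butyrophilin genes and a pseudogene lie among the histone genes and were chosen by position alone.

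Replacement histone genes differed less. Of 7 above background, 6 were lower and none passed 2-fold, with a median of -0.26 at 0.5 µM, -0.63 at 2 µM and 0.11 with No.10-3. H2AX, the variant phosphorylated at DNA breaks, went from 11.97 to 11.46 (-0.51), MACROH2A2 from 9.62 to 9.12 (-0.50) and H2AJ from 7.94 to 7.60 (-0.33). H2AZ1, which encodes the variant found at promoters, was the member with a higher signal, at 12.98 with vehicle and 13.24 with C-30 (0.26). The difference between the replacement and the cluster genes was not tested.

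DNA replication and G1/S genes were more often lower than higher, by small amounts. Of 36 DNA replication genes above background, 27 were lower and 9 higher, with a median of -0.21, 1 past 2-fold lower and 2 past 2-fold higher. MCM5, a subunit of the replicative helicase, went from 11.15 to 10.10 (-1.05), POLA2, a subunit of the primase complex, from 8.48 to 7.68 (-0.80), and CDC45, the helicase cofactor, from 9.93 to 9.21 (-0.72). RFC3, a subunit of the clamp loader, stood against them, from 7.96 to 9.51 (1.55, 2.93-fold higher), with 8.78 at 2 µM and 8.67 with No.10-3. Of 17 genes of the G1/S transition, 13 were lower, with a median of -0.29. Past 2-fold lower were 2 (11.8%, against 3.04% of all genes described). E2F8, a repressor of the E2F family, went from 8.45 to 7.12 (-1.33), the cyclin gene CCND3 from 9.91 to 9.13 (-0.78), the kinase gene CDK2 from 11.17 to 10.47 (-0.70) and E2F4 from 11.13 to 10.45 (-0.68). The G1/S median was -0.11, with none of 10 genes past 2-fold, under the stricter background rule (99th percentile), and -0.08 over 27 genes with no background rule. Nucleotide synthesis genes were split, with 13 of 25 higher and a median of 0.06.

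**Figure D2:**
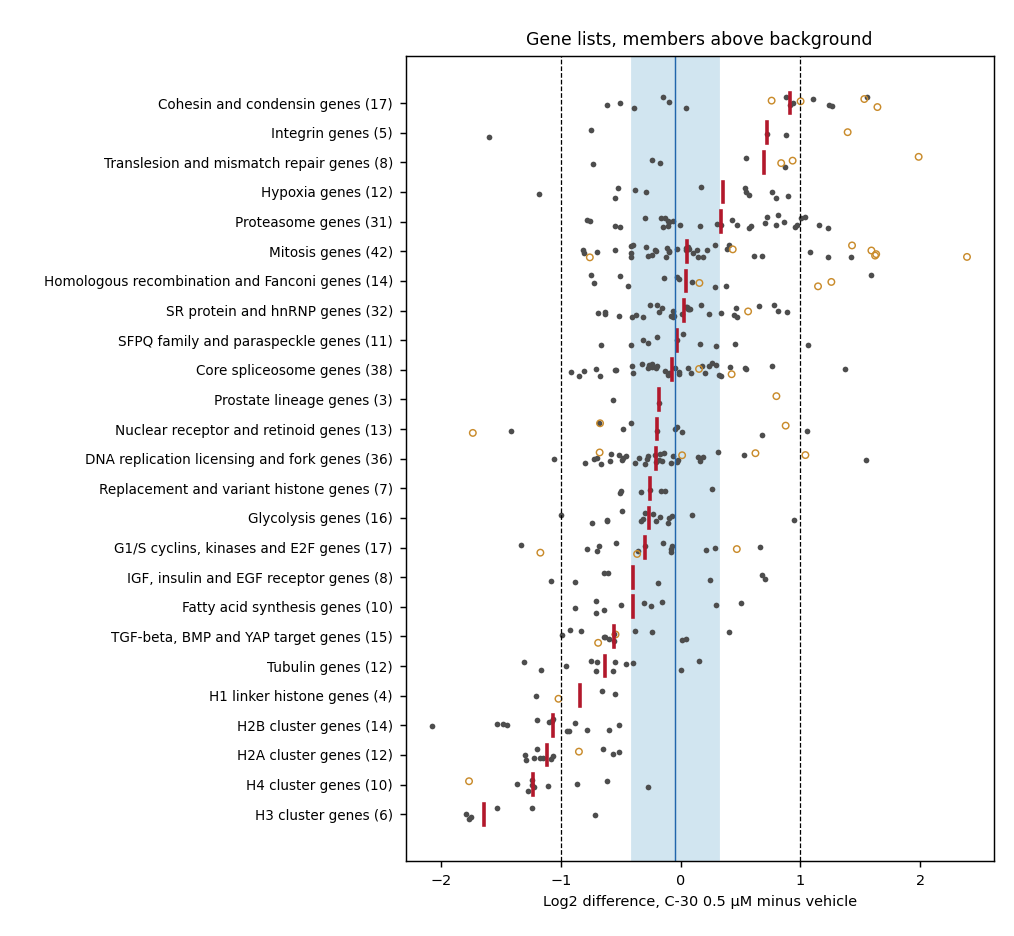
Log2 difference between C-30 at 0.5 µM and vehicle (horizontal axis) for the members above background of each gene list described (vertical axis, with the number of members), where filled points were above background on both arrays, open points on 1 array, and red bars mark the list medians. The blue band holds the middle 50% of all genes described (-0.40 to 0.32); the 5 histone lists lie lowest, with medians from -1.64 to -0.84, and the cohesin and condensin list highest at 0.92.

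At the other end stood the genes of cohesin and condensin, the ring complexes that hold sister chromatids together and compact chromosomes. Of 17 above background, 12 were higher and 5 lower, with 7 past 2-fold higher and none past 2-fold lower. The 7 made up 41.2% of these genes, against 3.63% 2-fold higher among all genes described. Only 4 of the 7 were above background on both arrays. The median was 0.92, and 0.88 for the 13 above background on both arrays, against 0.39 with C-30 at 2 µM and 0.80 with No.10-3. SMC3, a core cohesin subunit, had 8.74 with vehicle, 10.29 with C-30 at 0.5 µM, 9.71 at 2 µM and 9.99 with No.10-3, a difference of 1.55 (2.93-fold). Vehicle was the lowest array and 0.5 µM the highest.

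The other 3 members with the largest differences above background on both arrays were also higher. The condensin gene NCAPG had 8.44, 9.71, 9.03 and 9.77 in the same order of arrays, a difference of 1.27. PDS5A, which regulates cohesin release, had 9.87, 11.10, 10.67 and 11.23 (1.23). STAG2, a cohesin subunit often mutated in cancer, had 7.76, 8.86, 8.02 and 8.56 (1.10). Read by symbol after the values were seen, 5 of 6 SMC subunit genes were higher (median 0.97). Only 4 of the 6 were above background on both arrays. Of 5 NCAP genes of condensin, all above background on both arrays, 2 were higher and 3 lower (median -0.10). The contrast was not tested.

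Mitosis genes were split at this dose. Of 42 above background, 23 were higher and 19 lower, with a median of 0.05, which was -0.03 over the 35 above background on both arrays. The medians of the same genes were 0.23 at 2 µM and 0.72 with No.10-3. Past 2-fold higher were 8 and past 2-fold lower 0, and 5 of the 8 were dim with vehicle. KIF11, the motor that separates the spindle poles, went from 7.55 to 8.97 (1.42), with 7.77 at 2 µM and 8.96 with No.10-3. The mitotic kinase gene CDK1 went from 9.14 to 10.37 (1.23) and the cyclin gene CCNB2 from 9.15 to 10.22 (1.08), while the phosphatase gene CDC25B, which activates CDK1, went from 12.42 to 11.61 (-0.81). CDK1 and CCNB2 were higher still at 2 µM, at 10.75 and 10.84.

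**Figure D3:**
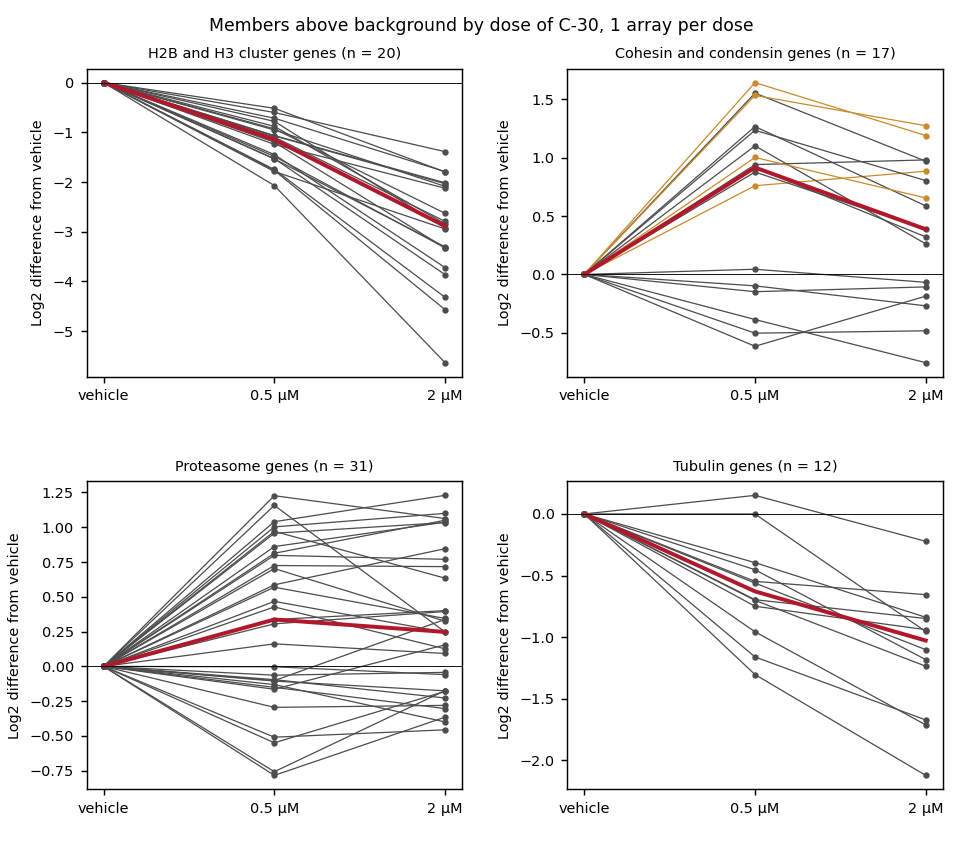
Log2 difference from vehicle (vertical axis) at 0.5 and 2 µM of C-30 (horizontal axis), 1 array per dose, for H2B and H3 cluster genes, cohesin and condensin genes, proteasome genes and tubulin genes above background at 0.5 µM or with vehicle. Thin lines are genes, brown where the signal was above background on 1 array of the vehicle and 0.5 µM pair, and the thick red line is the median; H2BC14 reaches -2.07 and then -5.63, while the cohesin and condensin median goes from 0.92 to 0.39.

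Tubulin genes, which encode the subunits of microtubules, were lower in 11 of 12 cases, with a median of -0.63 at 0.5 µM, -1.03 at 2 µM and -0.09 with No.10-3. TUBA4A had 12.68 with vehicle, 11.38 with C-30 at 0.5 µM, 10.56 at 2 µM and 11.58 with No.10-3, a difference of -1.30 (2.47-fold lower). TUBB4A went from 12.25 to 11.08 (-1.16), TUBA1A from 14.46 to 13.51 (-0.96) and TUBG2, a gene of the nucleating gamma-tubulin, from 12.69 to 11.94 (-0.75). Only TUBA4A and TUBB4A passed 2-fold, which is 16.7% of the 12, against 3.04% 2-fold lower among all genes described. Tubulin genes also have closely similar copies, so single members are uncertain.

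Proteasome genes, which encode the complex that degrades ubiquitin-tagged proteins, were higher in 18 of 31 cases and lower in 13. All 31 were above background on both arrays. Of them 4 were past 2-fold higher and none past 2-fold lower. The 4 made up 12.9%, against 2.31% of all genes above background on both arrays. The median was 0.34, against 0.25 at 2 µM and -0.04 with No.10-3. PSMA4, a subunit of the outer ring of the core, had 8.51 with vehicle, 9.74 with C-30 at 0.5 µM, 9.58 at 2 µM and 8.92 with No.10-3 (1.23). PSMD14, the deubiquitinase of the cap, went from 7.88 to 9.03 (1.16) but stood at 8.13 at 2 µM. The ATPase subunit genes PSMC2 and PSMC6 went from 11.98 to 13.02 (1.04) and from 8.44 to 9.44 (1.00). Read by symbol after the values were seen, all 7 alpha ring genes were higher, from 0.43 to 1.23 with a median of 0.80, whereas 5 of 7 beta ring genes, which include the catalytic subunits, were lower, with a median of -0.15. The contrast between the rings was not tested.

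The genes with the highest differences came from several functions. ANXA1, at chr9:73151865-73170393, encodes annexin A1, a phospholipid-binding protein with a role in inflammation. Its signal was 9.59 with vehicle, 12.12 with C-30 at 0.5 µM, 12.35 with C-30 at 2 µM and 11.49 with No.10-3, a difference of 2.52 (5.75-fold higher) at 0.5 µM. All 3 treated arrays lay above vehicle. EIF3E, which encodes a subunit of a translation initiation factor, had 11.16, 13.22, 12.94 and 12.32 in the same order (2.06, 4.18-fold higher). HSP90AA1, the inducible cytosolic chaperone gene at chr14:102080742-102139749, had 11.27, 13.05, 12.95 and 12.68 (1.79).

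Genes of the cytoskeleton and its motors were among them. DST, which encodes the linker protein dystonin, had 9.89 with vehicle, 11.77 with C-30 at 0.5 µM, 10.81 at 2 µM and 11.85 with No.10-3 (1.88). The kinesin motor gene KIF5B had 8.76, 10.55, 10.19 and 10.81 (1.79), and TWF1, which encodes an actin-binding protein, had 8.60, 10.38, 10.32 and 9.79 (1.78). For DST and KIF5B the No.10-3 array was the highest, for TWF1 the 0.5 µM array. The RNA-binding protein gene SSB, whose product protects new small RNAs, went from 10.53 to 12.14 (1.61), and BZW1, a regulator of translation start, from 10.33 to 11.92 (1.59).

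The remaining genes of the 15 highest were dimmer with vehicle. ATM, the kinase that signals DNA breaks, went from 7.75 to 9.33 (1.59), the ubiquitin ligase gene MARCHF7 from 7.85 to 9.49 (1.64) and the endosomal chaperone gene DNAJC13 from 7.54 to 9.14 (1.61). The repressor gene ZHX1 went from 7.66 to 9.25 (1.59) and IBTK from 8.21 to 9.74 (1.53). Each of the 15 was also higher than vehicle on the 2 µM and No.10-3 arrays, which share the vehicle array, so a low vehicle signal would enter all 3 differences.

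**Figure D4:**
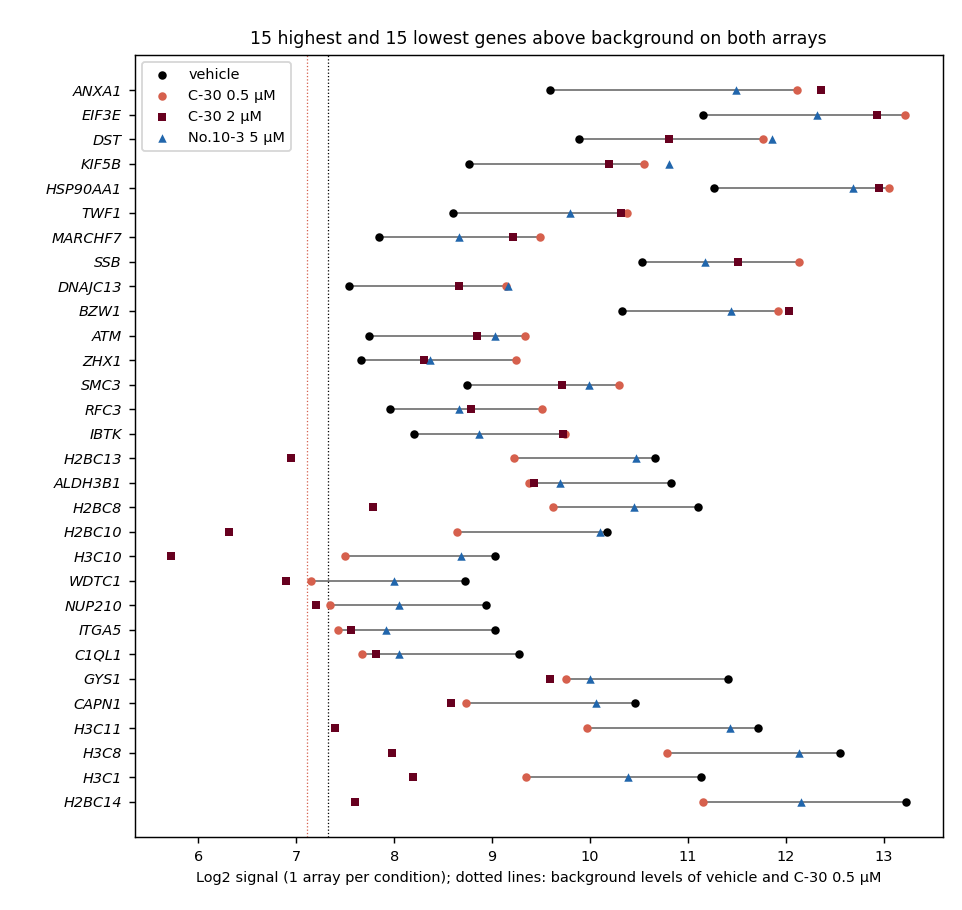
Log2 signal (horizontal axis) on each of the 4 arrays, 1 per condition, of the 15 genes with the highest and the 15 with the lowest difference between C-30 at 0.5 µM and vehicle among genes above background on both (vertical axis). Lines join vehicle and C-30 at 0.5 µM and dotted lines mark the background levels of those arrays. The histone genes lie lower still at 2 µM, down to 5.72 for H3C10, which is under that array's background level of 7.15. Genes such as CAPN1 and GYS1 have like signals at both doses.

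Outside the histones, the lowest genes above background on both arrays were enzymes, receptors and structural proteins. CAPN1 (chr11:65181373-65212006), the gene of a calcium-dependent protease, had 10.46 with vehicle, 8.73 with C-30 at 0.5 µM, 8.58 at 2 µM and 10.06 with No.10-3, a difference of -1.72 (3.31-fold lower). GYS1 (chr19:48968130-48993309), the muscle-type glycogen synthase gene, had 11.40, 9.75, 9.59 and 10.00 (-1.65). ALDH3B1, an aldehyde dehydrogenase gene, had 10.83, 9.38, 9.42 and 9.69 (-1.45). In these 3 the doses of C-30 gave signals within 0.2 of each other, unlike in the histone genes.

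ITGA5, which encodes the alpha subunit of the fibronectin receptor, had 9.03 with vehicle, 7.43 with C-30 at 0.5 µM, 7.56 at 2 µM and 7.92 with No.10-3 (-1.60). C1QL1, a secreted protein gene, went from 9.27 to 7.67 (-1.60), the nuclear pore gene NUP210 from 8.94 to 7.34 (-1.60) and WDTC1 from 8.72 to 7.15 (-1.57). These 4 signals with C-30 lay between 7.15 and 7.67, against a background level of 7.11 on that array.

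Some of the largest differences were bounds. For a gene above background on 1 array, the bound sets its bright signal against the background level of the dim array. On this measure the corepressor gene NRIP1, which acts with nuclear receptors, was at least 3.53-fold higher, with signals of 6.53 with vehicle and 9.14 with C-30. CCDC88A, which encodes an actin-binding regulator of cell movement, was at least 3.20-fold higher (7.22 and 9.0), and CHD1, a chromatin remodeller gene, at least 2.97-fold higher (6.09 and 8.89). RIF1, which acts in replication timing and break repair, was at least 2.66-fold higher, SDAD1 2.65-fold, SMCHD1, of the SMC family of chromatin proteins, 2.62-fold, and ANKRD36B and QSER1 2.31-fold each. On the lower side were the mitochondrial ribosome gene MRPL49 (8.40 and 6.98, at least 2.44-fold lower), the histone demethylase gene KDM4A (8.32 and 7.08, at least 2.32-fold) and the transfer RNA modification gene QTRT2 (8.25 and 6.96, at least 2.21-fold). SP2, CMTM7, KCNAB2, CNNM2 and JDP2 followed at between 2.19-fold and 2.04-fold. Such genes were described only through their bright array, so the rule favours those that differ. The background levels of the arrays are unequal, so a small difference could also pass, as for BTN2A1 at 7.16 with vehicle and 7.37 with C-30.

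The target gene itself differed little, and its partner gene NONO was lower. SFPQ had signals of 12.59 with vehicle and 12.60 with C-30 at 0.5 µM, a difference of 0.02. NONO went from 12.48 to 11.82 (-0.66) and PSPC1 from 9.91 to 9.88 (-0.03). Of 11 genes of this family and of paraspeckles above background, 5 were higher and 6 lower, with a median of -0.03 that turned positive under quantile normalization (0.05) and under the lowess correction on signal (0.06). TARDBP, an RNA-binding protein gene, passed 2-fold, from 11.42 to 12.48 (1.06), with 11.81 at 2 µM and 11.93 with No.10-3. NUDT21, which sets poly(A) site choice, went from 11.50 to 11.96 (0.45) and TAF15 from 14.08 to 13.67 (-0.41).

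Splicing factor genes lay around the middle of all genes. Of 38 core spliceosome genes, 16 were higher and 22 lower, with a median of -0.07 that was 0.00 under quantile normalization and 0.01 under the lowess correction. CDC40, a factor of the second splicing step, was the only one past 2-fold, from 7.67 to 9.04 (1.37), and stood at 9.62 at 2 µM. SNRPF went from 8.44 to 7.52 (-0.92), the helicase gene DHX8 from 13.25 to 12.40 (-0.85) and SNRNP40 from 8.47 to 7.66 (-0.80). Of 32 SR protein and hnRNP genes, 17 were higher and 15 lower, with a median of 0.03 and none past 2-fold. The SR genes SRSF11 (8.13 to 9.01, 0.89), SRSF1 (12.99 to 13.80, 0.81) and SRSF3 (9.89 to 10.67, 0.78) were higher, and CLK2, a kinase of SR proteins, went from 10.12 to 9.43 (-0.69).

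Nuclear receptor and prostate genes were mostly dim. Of 34 named nuclear receptor and retinoid genes, 13 were above background, 4 higher and 9 lower, with a median of -0.20. The thyroid hormone receptor gene THRA went from 8.76 to 7.35 (-1.41), and the glucocorticoid receptor gene NR3C1 from 7.41 to 8.46 (1.05). RXRB, the shared partner of many receptors, went from 8.44 to 7.75 (-0.68) and the orphan receptor gene NR2C1 from 7.68 to 8.36 (0.68). Only 3 of 15 genes of the prostate lineage list were above background, 1 higher and 2 lower. FOXA1, the pioneer factor of prostate epithelium, went from 10.18 to 9.61 (-0.56) and the transporter gene ABCC4 from 8.21 to 8.03 (-0.18). The third gene had the largest difference, higher by 0.80, and was dim with vehicle.

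DNA repair lists held genes of both directions. Of 14 homologous recombination and Fanconi genes, 7 were higher and 7 lower (median 0.04, and -0.03 above background on both arrays). Past 2-fold higher were 3 (21.4%, against 3.63% of all genes described), and none was past 2-fold lower. The 3 were ATM as above and, named after their values were seen, RAD50 and NBN. RAD50 and NBN were dim with vehicle (6.57 and 6.82, against 7.82 and 7.97 with C-30). The members with the largest lower differences above background on both arrays were XRCC3 from 9.73 to 8.98 (-0.75), SLX4 from 9.59 to 8.87 (-0.72) and the nuclease gene MRE11 from 8.21 to 7.70 (-0.50). The 8 translesion and mismatch repair genes had a median of 0.69, but the 5 above background on both arrays had one of -0.17. Among those 5, the ubiquitin ligase gene RAD18 went from 7.89 to 8.77 (0.88), the mismatch repair gene PMS2 from 11.19 to 10.47 (-0.73), MAD2L2 from 8.50 to 9.05 (0.55) and the polymerase gene POLH from 8.90 to 8.66 (-0.23).

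Adhesion and growth factor genes gave mixed lists. Of 5 integrin genes, 3 were higher and 2 lower (median 0.72, and -0.01 for the 4 above background on both arrays). Besides ITGA5, ITGA3 went from 14.07 to 13.32 (-0.75), while ITGA6 went from 8.47 to 9.35 (0.88) and ITGB1, the common beta subunit, from 14.90 to 15.62 (0.72). TGF-beta, BMP and YAP targets and pathway genes were lower in 12 of 15 cases, with a median of -0.55 (-0.75 at 2 µM and -0.06 with No.10-3) and none past 2-fold. The LIM protein gene AJUBA went from 9.08 to 8.09 (-0.99), the ligand gene TGFB1 from 10.26 to 9.34 (-0.92), the differentiation inhibitor gene ID1 from 11.89 to 11.05 (-0.83) and the receptor gene TGFBR2 from 9.71 to 9.07 (-0.64).

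Of 8 genes of insulin-like and epidermal growth factor signalling, 5 were lower, with a median of -0.40. The receptor genes IGF1R (11.58 to 10.50, -1.08) and ERBB3 (8.03 to 7.15, -0.88) were lower. The ligand gene EREG (8.70 to 9.41, 0.70) and the receptor gene MET (9.84 to 10.52, 0.68) were higher. IGF1R alone passed 2-fold in this list.

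Lists of metabolism differed in direction. Of 10 fatty acid synthesis genes, 8 were lower (median -0.40, against 0.01 at 2 µM and -0.30 with No.10-3) and none passed 2-fold. The regulator gene SREBF1 went from 8.46 to 7.58 (-0.88), the synthase gene FASN from 10.33 to 9.63 (-0.71), ACSS2 from 8.19 to 7.48 (-0.71) and the desaturase gene FADS2 from 16.43 to 15.79 (-0.64). Of 16 glycolysis genes, 14 were lower, with a median of -0.26. PFKFB3, which makes the activator of phosphofructokinase, went from 8.95 to 7.94 (2-fold lower), PFKL from 8.90 to 8.16 (-0.74) and HK1 from 10.77 to 10.16 (-0.61), while the lactate dehydrogenase gene LDHB went from 12.48 to 13.42 (0.94). Hypoxia genes were higher in 7 of 12 cases (median 0.35). Among them the regulator gene HIF1A went from 12.42 to 13.21 (0.80), BNIP3L from 10.56 to 11.46 (0.90) and the collagen hydroxylase gene P4HA1 from 8.10 to 8.86 (0.76), but its relative P4HA2 went from 9.52 to 8.33 (-1.18). Cholesterol synthesis and uptake genes were higher in 10 of 18 cases, with a median of 0.10.

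The shares past 2-fold differed with the length of genes. When the genes described were split by genomic span into 5 groups of equal number, the share at least 2-fold higher was 0.924% in the shortest group and then 2.10%, 3.95%, 5.38% and 5.80% in the longest. The share 2-fold lower was 4.45% in the shortest group and then 2.61%, 3.36%, 2.61% and 2.18% in the longest. The shortest group reached 10.6 kb and so held most histone cluster genes. Its share is not given without them. Median differences went from -0.16 in the shortest to 0.02 in the longest. The median span was 57.7 kb for genes 2-fold higher, 25.2 kb for genes 2-fold lower (30.9 kb without histone cluster genes) and 31.7 kb for all. Over the 5951 genes, however, the Spearman correlation of difference and span was weak, at 0.121.

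By chromosome, the median was lowest on chromosome 19 (-0.32 over 368 genes) and chromosome 22 (-0.28 over 130), and highest on chromosome 13 (0.19 over 73) and chromosome 4 (0.18 over 175). Chromosome 19 held 2 genes past 2-fold higher (0.543%) and 16 lower (4.35%), and chromosome 4 held 15 (8.57%) and 1 (0.571%). Over all genes described these shares were 3.63% and 3.04%. Chromosome 6 had a median of -0.11, which was 0.04 without the histone cluster genes. Over 23 chromosomes, with Y left out, the medians had a Spearman correlation of -0.871 with the number of named genes per Mb and 0.868 with the median span, and these 2 properties go together. With the GC content of promoters it was -0.166 over 22 chromosomes. Within the chromosomes looked at, the relation with span was not uniform. On chromosome 19, genes with a span under and over the median of all genes had medians of -0.32 and -0.33. On chromosome 13 these medians were 0.32 over 24 genes and 0.11 over 49. They were 0.17 and 0.23 on chromosome 4, and -0.23 and -0.15 on chromosome 17. The chromosomes share both arrays, and no test was made. On chromosome 19 the medians were -0.41 at 2 µM and -0.15 with No.10-3, and on chromosome 13 they were 0.19 and 0.17. Signal level moved with the difference too, with medians of 0.09 in the dimmest and -0.10 in the brightest of 5 groups. The part of signal level and of array noise in these patterns was not tested.

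**Figure D5:**
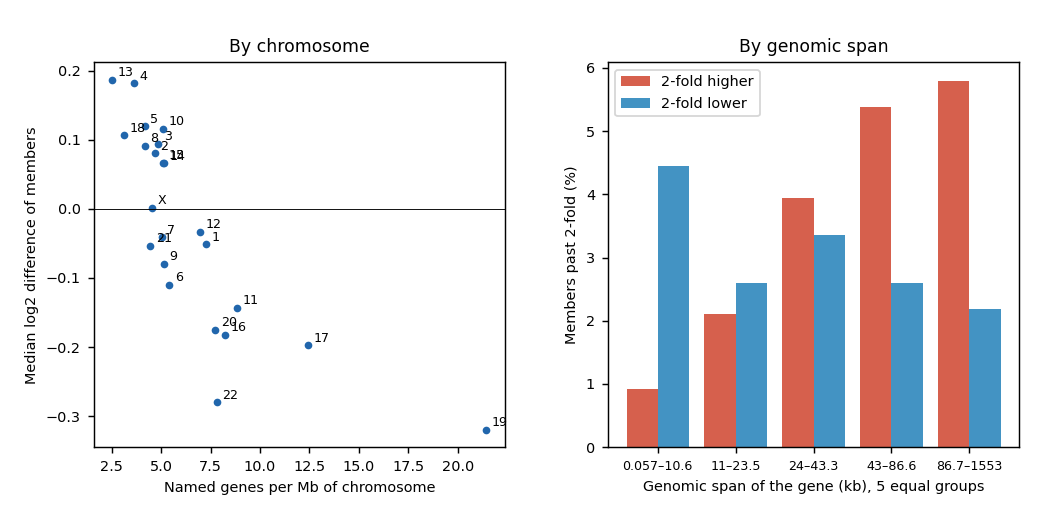
Left, the median log2 difference between C-30 at 0.5 µM and vehicle (vertical axis) of the genes described on each of 23 chromosomes against the number of named genes per Mb (horizontal axis), from -0.32 on gene-dense chromosome 19 to 0.19 on chromosome 13. Right, the percentage of genes past 2-fold (vertical axis, bars from 0) in 5 equal groups of genomic span in kb (horizontal axis), where the share 2-fold higher goes from 0.924% to 5.80%.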

How the data were processed

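Total RNA of DU145 cells was labelled with biotin and hybridised to 1 array per condition, per the labels. The deposited values are log2 signals per probe set, and the submitters' processing notes name Affymetrix Expression Console 1.3.0 with RMA as the tools the authors used. The log base was inferred from the range of the values, whose maximum of 19.66 points to a rescaling that is not given in the sources used here, so folds hold on this scale only. The authors' genome build and annotation are likewise not stated there.

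Probe sets were named from the platform annotation, symbols were updated through a RefSeq table of GRCh38.p14, and several probe sets of a gene were averaged, which gave 17687 genes. The difference between 2 arrays was taken per gene with no further normalization. Background levels came from 612 negative control probe sets, and precision is limited by having 1 array per condition. Promoter entries existed for 84.5% of the genes described.

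The genes named were the 15 highest and 15 lowest above background on both arrays, the 8 highest and lowest bounds, up to 4 members of each list described, by size of difference, SFPQ, NONO and PSPC1, and the 3 genes on each side of the background rule. Loci without a proper gene name, genes of small RNAs, olfactory receptors and segments of immune receptors were not named. Marker genes and the neighbours of histone genes are named besides. Of 61 lists, 52 had at least 5 members above background. Those described had a median of at least 0.25 either way or at least 3 members past 2-fold (20 lists), or belonged to the study's topic. The members, lists and rules were chosen with earlier results of these data known. Alternatives were a 1.5-fold threshold, other background rules, 3 scalings, the brightest probe set, the other table of deposited values, and counts without histone cluster genes. The procedure was tested on simulated data. The software was numpy 2.4.6, pandas 2.3.3, matplotlib 3.10.9 and statsmodels 0.14.6 under Python 3.11.15.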

Additional observations from a re-analysis of the deposited data

Results flagged for a closer look

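Signals past 2-fold also appeared among probe sets without a gene symbol, which entered no comparison above. Of 3739 such probe sets, 899 were above background, and 25 of these (2.78%) were at least 2-fold higher with C-30 at 0.5 µM and 27 (3.00%) at least 2-fold lower. Their differences spanned -1.94 to 2.08 around a median of -0.05. These shares are near those of the positive control probe sets, 3.15% and 3.8%.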

How the results depend on the processing

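No paired analysis was possible because each condition has 1 array. A threshold of 1.5-fold gave 727 genes higher and 860 lower and 45 lists meeting the rule for description, against 216, 181 and 20. Background at the 99th percentile of the negative controls gave 131 and 114, a signal above background on both arrays gave 120 higher and 134 lower, and no background rule gave 397 and 301. The share of higher genes among those past 2-fold was 54.4%, and 59.8% after quantile normalization, 58.3% after centring and 52.2% after the lowess correction, but 47.2% above background on both arrays and 45.8% at 1.5-fold. Without histone cluster genes 151 genes were lower. Of 225 list medians recomputed, 22 moved by more than the ERCC robust SD of 0.154 and 14 took the other sign, among them those of the translesion (-0.17) and integrin (-0.01) lists on both arrays. Some settings could hardly move a value, so these counts overstate stability. The 1.5-fold threshold leaves every median unchanged, only 20 genes had several probe sets, and the tables of deposited values differed by at most 5e-05. The histone, cohesin, tubulin and proteasome medians kept their sign throughout the settings tried. Of 695 differences of named genes, 3 took the other sign, 2 of them those of PSPC1 and the other that of HELB, at the edge of the background rule. Of 45 negative control probe sets that passed the background rule, 14 were 2-fold higher and 13 lower. Of the 16 above background on both arrays, 2 were 2-fold higher and 3 lower. Differences of single genes are therefore uncertain. The cause of these shifts was not tested.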

Other observations

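Genes of the cytosolic ribosome, the machine of protein synthesis, were more often higher than lower. Of 46 above background, all on both arrays, 37 were higher and 9 lower with C-30 at 0.5 µM, with a median of 0.23, a range of -0.12 to 0.91 and none past 2-fold. Their median was -0.01 with C-30 at 2 µM and 0.00 with No.10-3. Nuclear genes of the respiratory chain, which makes ATP in mitochondria, were higher in 33 of 61 cases with a median of 0.03. Cytosolic chaperone genes, which help proteins fold, were higher in 16 of 25 cases, with a median of 0.19 and 2 past 2-fold. Chaperone genes of the endoplasmic reticulum were higher in 9 of 18 cases, with a median of -0.06 and none past 2-fold.

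Lists of factors that handle histones differed less than the histone cluster genes themselves. Of 14 genes of histone mRNA transcription and processing, 7 were higher and 7 lower, with a median of 0.01 and none past 2-fold. The 12 above background on both arrays had a median of -0.17. Histone chaperone genes were lower in 7 of 9 cases, with a median of -0.19, -0.48 at 2 µM, and none past 2-fold at 0.5 µM. Antioxidant genes driven by NRF2 were lower in 12 of 19 cases, with a median of -0.20. Of 8 annexin genes, 6 were higher, from a lowest difference of -1.13 to 2.52 for ANXA1.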
